A study of Rattus norvegicus with 15 samples.

Results

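The troponin genes of H9c2 cells were followed in 15 RNA-seq libraries. The members were the rows of the count table with the symbols Tnnt1, Tnnt2, Tnnt3, Tnni1, Tnni2, Tnnc1 and Tnnc2. All 7 were present among the 11574 genes of the table, each as a single row. Tnni3, which encodes the troponin I of adult heart, is not among the genes analysed here. The 7 genes took 30352 of the 10234428 counts in all libraries, or 0.297%.

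H9c2 is an established myoblast line derived from embryonic rat ventricle, labelled as wild type and as heart myocardium, and all cultures came from this line. The 15 cultures formed 5 groups of 3, which were sequenced as biological replicates. T0 cells were harvested after attachment, before the serum in the medium was lowered. T7-RA and T14-RA cells were kept in low serum for 7 and 14 days without all-trans retinoic acid (RA), a derivative of vitamin A and ligand of nuclear receptors. T7+RA and T14+RA cells were kept in the same medium for the same times with 1 µM RA added daily. RA was dissolved in DMSO, and the sources used here do not state whether the cultures without RA received DMSO. The plus and minus signs in the group names stand for the presence and absence of RA.

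Troponin is the calcium switch of striated muscle. Troponin C binds calcium, troponin I holds the actin filament in its off state, and troponin T anchors the complex to tropomyosin, so that a working complex needs each of the 3 subunits. Each subunit has paralogs that differ between muscle types. Tnnt1, Tnni1 and Tnnc1 serve slow skeletal muscle, Tnnt3, Tnni2 and Tnnc2 serve fast skeletal muscle, and Tnnt2 is the cardiac troponin T. Tnnc1 is shared by slow muscle and heart. Embryonic skeletal muscle also uses Tnnt2, and embryonic heart also uses Tnni1, so neither gene by itself names a muscle type.

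The libraries held from 508397 to 1030820 counts, with a median of 22 counts per gene and library. The troponin genes together took 0.0531 to 0.0838% of the counts at T0, 0.184 to 0.191% in T7-RA, 0.203 to 0.218% in T7+RA, 0.532 to 0.605% in T14-RA and 0.422 to 0.482% in T14+RA, and no ranges of these groups overlapped. The cardiac markers Gata4 and Hand2, a pair of heart transcription factors, had 5 to 18 and 2 to 14 counts per library, and neither passed the test for the T7, T14 or RA term of the additive model, which fits each day and RA as separate terms. Myh6, Nppa, Nppb, Nkx2-5, Tbx5, Myl7 and Tnni3 are not among the genes analysed here. The 7 measured skeletal markers were Myod1, Myog, Ckm, Chrna1, Mymk, Myh3 and Myh8. Their levels summed to 217 to 263 CPM, the counts scaled to a fixed library size, at T0. The sums were 5989 to 6269 CPM in T14-RA and 2446 to 2875 CPM in T14+RA. Most of these later sums was Myh3, with 4937 to 5209 CPM in T14-RA and 1747 to 2119 CPM in T14+RA. Myod1 did not share the rise, with a T14 change of −0.88 on the log2 scale that was not called. The sum of the 6 smooth muscle markers fell, from 15642 to 17107 CPM at T0 to 3531 to 3636 CPM in T14-RA. Most of this sum was Acta2, with 12347 to 12990 CPM at T0 and 2473 to 2534 CPM in T14-RA. Myh11 was not called, with 8.28 to 11.3 CPM at T0 and 10.6 to 16.9 CPM in T14-RA. At T14, 6 of the 7 skeletal markers rose, 5 of the 6 smooth muscle markers fell, and of the 5 measured fibroblast markers 2 rose and 2 fell, against 8.47% of all genes that rose and 8.85% that fell at an adjusted p of 0.001. RA lowered 3 of the 7 skeletal, 2 of the 6 smooth muscle (Myocd and Smtn) and 3 of the 5 fibroblast markers, against 3.07% of all genes, and raised 1 fibroblast marker, against 3.33%. Myh8, Dcn and Lum were at 0 in all T0 libraries. The label of heart tissue was therefore checked on the cardiac side with Gata4 and Hand2, whose counts were too low for a firm statement. In such bulk libraries a change in the share of cells that make a transcript and a change in transcript per cell cannot be told apart, and the part of the shifting marker levels in the troponin values was not tested.

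The 250 bases before the transcription start of 3 members are shown to set a troponin T and both troponin I genes side by side, since Tnni1 and Tnni2 rose together without RA and separated with it. The sequences are from RefSeq on build GRCr8, on the plus strand, at chr13:49818873-49819122 (Tnnt2, the upstream of its 2 listed starts), chr13:49781279-49781528 (Tnni1) and chr1:207024240-207024489 (Tnni2). Capitals mark the E-box CANNTG, which is bound by the myogenic basic helix-loop-helix factors, the M-CAT core CATTCC, the TATA box TATAAA and the retinoid receptor hexamer AGGTCA, each searched on both strands, and no matches overlapped in these windows.
Tnnt2: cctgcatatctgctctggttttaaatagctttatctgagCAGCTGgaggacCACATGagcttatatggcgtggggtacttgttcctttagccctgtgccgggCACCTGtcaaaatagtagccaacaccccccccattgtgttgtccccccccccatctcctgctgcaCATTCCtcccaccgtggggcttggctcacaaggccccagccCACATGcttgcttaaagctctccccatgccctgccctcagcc
Tnni1: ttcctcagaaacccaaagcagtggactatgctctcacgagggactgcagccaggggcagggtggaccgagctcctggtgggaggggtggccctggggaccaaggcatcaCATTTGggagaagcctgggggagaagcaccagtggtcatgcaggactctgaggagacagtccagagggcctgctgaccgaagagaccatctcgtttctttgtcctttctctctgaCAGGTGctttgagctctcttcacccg
Tnni2: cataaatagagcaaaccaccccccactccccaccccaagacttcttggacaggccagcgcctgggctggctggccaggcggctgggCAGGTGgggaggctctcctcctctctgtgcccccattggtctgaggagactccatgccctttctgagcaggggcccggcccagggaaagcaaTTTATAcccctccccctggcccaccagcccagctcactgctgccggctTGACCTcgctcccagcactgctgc

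The RefSeq table held promoters for 5 of the 7 members, Tnnt1, Tnnt2, Tnni1, Tnni2 and Tnnc2. An E-box was found in all 5, against 65.5% of the 33469 promoters in the table. Tnnt2 held 4 of them before its upstream start and the only M-CAT core among the members, a hexamer present in 12.1% of all promoters. TATAAA was found in Tnnt1 and Tnni2, the latter on the minus strand, against 12.9% of all promoters. AGGTCA was found in Tnni2 alone, as TGACCT with its first base 24 bases before the start, against 14.06% of all promoters. The MEF2 site and the CArG box, the sites of further muscle regulators, were found in 0 of the 5 members and in 2.96% and 1.5% of all promoters. These matches describe letters in a window and do not show binding.

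In the deposited annotation Tnnt3 and Tnni2 share the band 1q41, and Tnnt2 and Tnni1 share the band 13q13. In the RefSeq gene order Tnni2 and Tnnt3 are separated by 2 protein-coding genes, Lsp1 and Prr33, Tnni1 and Tnnt2 are separated by 1, Lad1, and Tnni3 and Tnnt1 are direct neighbours on chromosome 1. The troponin C genes stand apart, Tnnc1 at 16p16 and Tnnc2 at 3q42. Each of the 3 neighbouring pairs thus joins a troponin T to a troponin I gene.

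Most troponin genes were higher after 7 and 14 days in low serum than at T0, and RA lowered 2 fast paralogs. T0 was harvested before the serum was lowered, so time in culture and low serum cannot be told apart in changes against T0. Counts were fitted in edgeR to a model with terms for T7, T14 and RA, where T7 and T14 are changes against T0 and RA is the mean change over both days. A gene was called at an adjusted p under 0.001. Of the 7 members, 5 rose at T7 and 5 at T14, against 4.29% and 8.47% of all genes tested, and 0 fell. RA lowered Tnnt3 and Tnni2 and raised 0 members, against 3.07% of all genes lowered and 3.33% raised. At an adjusted p of 0.05 it lowered 4 members, Tnni1 and Tnnt2 being added, and raised Tnnc1, against 7.3% of all genes lowered and 7.40% raised. The median log2 change of the members was 3.02 at T7, 4.60 at T14 and −0.31 for RA, beside medians of 0.02, 0.05 and −0.01 over all genes.

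**Figure D1:**
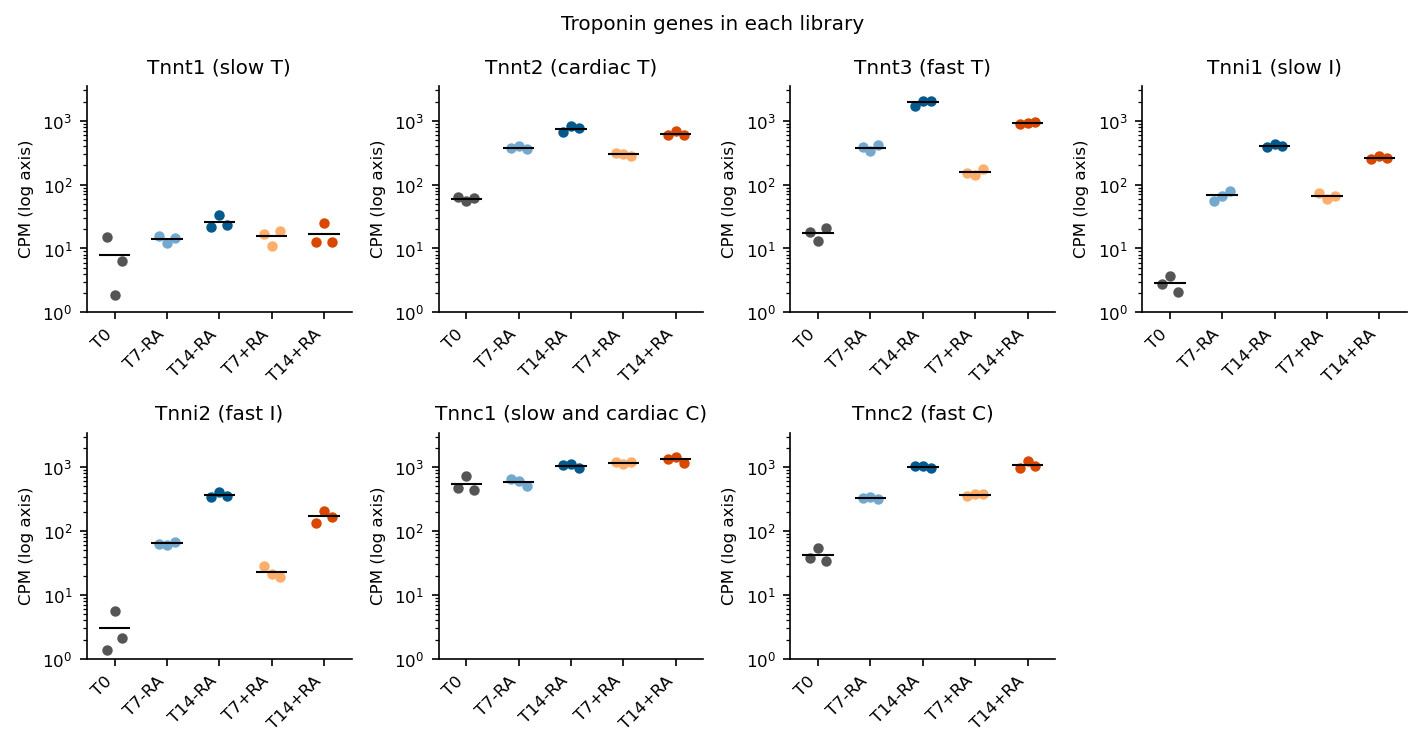
Level of each troponin gene in each of the 15 libraries, in CPM on a log axis, by group. Points are cultures and the bar is the mean of 3. Tnnt3 climbs from 13.1 to 21.0 CPM at T0 to 1721 to 2052 CPM in T14-RA, and the T7+RA points of Tnnc1 (1112 to 1222 CPM) lie above its T7-RA points (517 to 657 CPM).

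Tnnt3 (ENSRNOG00000020332, 1q41), the fast skeletal troponin T, had 7014 counts over all libraries. It was measured at 17.9, 13.1 and 21.0 CPM at T0, at 386, 333 and 423 CPM in T7-RA and at 1721, 2023 and 2052 CPM in T14-RA. With RA it stood at 149.7, 144 and 175 CPM in T7+RA and at 884, 913 and 948 CPM in T14+RA. The 5 groups followed each other without overlap in the order T0, T7+RA, T7-RA, T14+RA and T14-RA. Tnnt3 rose by 4.45 on the log2 scale from T0 to T7-RA (SE 0.185, adjusted p = 5.51e-30) and by a further 2.34 to T14-RA (SE 0.102, adjusted p = 2.74e-28). The corresponding step from T7+RA to T14+RA was 2.56 (SE 0.115, adjusted p = 2.14e-27). In each of these second-week comparisons Tnnt3 had the smallest p of the 11574 genes. RA lowered it by 2.45-fold at day 7 (log2 change −1.29, SE 0.120, adjusted p = 2e-13) and by 2.11-fold at day 14 (−1.08, SE 0.0951, adjusted p = 1.51e-14).

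Tnnt2 (ENSRNOG00000033734, 13q13), the cardiac and embryonic troponin T, had 4445 counts. It was measured at 63.5, 54.4 and 60.8 CPM at T0, at 369, 409 and 360.2 CPM in T7-RA and at 670.2, 822 and 769 CPM in T14-RA. Levels with RA were 312, 306 and 283 CPM at day 7 and 607, 680.5 and 598 CPM at day 14. It was thus the most abundant troponin T transcript at T0 and climbed in both arms, with the T7+RA cultures below all T7-RA cultures and the 2 day 14 groups overlapping. The rise was 2.66 on the log2 scale over the first week (SE 0.145, adjusted p = 4.54e-24) and 0.99 over the second without RA (SE 0.102, adjusted p = 1.45e-11), smaller steps than those of Tnnt3. The RA change was −0.33 at day 7 (SE 0.110, adjusted p = 0.0468) and −0.26 at day 14 (SE 0.0989, adjusted p = 0.0846), and neither was called at 0.001.

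Tnnt1 (ENSRNOG00000028041, 1q12), the slow skeletal troponin T, stayed scarce, with 165 counts in all. T0 cultures held 11, 1 and 3 counts, and the other 12 libraries held 7 to 19 counts each. Its level was 7.78 ± 6.77 CPM (SD, n = 3) at T0, 14.0 ± 1.76 and 26.3 ± 6.43 CPM at days 7 and 14 without RA, and 15.6 ± 4.27 and 16.8 ± 7.23 CPM at these days with RA. The 3 T14-RA cultures lay above all T0 and T7-RA cultures, and the RA groups overlapped with their controls on both days. The T14 change was 1.42 (SE 0.426, adjusted p = 0.0064) and was not called. That outcome rested on 1 library, since without T0 replicate 1, which held 11 of the 15 T0 counts, the T14 change was 2.51 (adjusted p = 0.000711). Changes of this gene with RA, 0.12 at day 7 (95% interval −0.69 to 0.93) and −0.66 at day 14 (−1.37 to 0.06), could not be resolved at this depth.

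Troponin I rose from near the limit of detection. Tnni1 (ENSRNOG00000009073, 13q13), the slow and embryonic troponin I, had 2, 2 and 1 counts at T0. It then reached 56.1, 67.2 and 79.9 CPM in T7-RA and 389, 429 and 408 CPM in T14-RA. In T7+RA it stood at 72.7, 60.4 and 65.1 CPM and in T14+RA at 253, 281 and 263 CPM. The day 7 cultures with and without RA overlapped, whereas every T14+RA culture lay below every T14-RA culture. The summed counts, scaled by TMM library size, were 23.2 times those of T0 in T7-RA (exact 95% interval 9.74 to 72.6) and 140.9 times in T14-RA (60.1 to 435), and with RA 22.9 times at day 7 (9.58 to 71.7) and 91.4 times at day 14 (38.9 to 283). The RA change was −0.02 at day 7 (95% interval −0.38 to 0.34, adjusted p = 0.976) and −0.62 at day 14 (SE 0.113, adjusted p = 2.43e-05). The day 14 call was lost without T14+RA replicate 1 (−0.58, adjusted p = 0.00158) and with limma-trend (−0.62, adjusted p = 0.0154). Averaged over both days the RA change was −0.44 (SE 0.105, adjusted p = 0.00122), just outside the threshold, and it was called at −0.50 to −0.45 without T0 replicate 2 or 3, T7-RA replicate 1 or 2, or T7+RA replicate 1, and with scaling by library size only (−0.47, adjusted p = 0.000649).

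Tnni2 (ENSRNOG00000020276, 1q41), the fast skeletal troponin I, had 1, 3 and 1 counts at T0, as few as Tnni1. Without RA it followed its paralog closely, with 63.2, 60.5 and 68.3 CPM in T7-RA and 339.9, 407 and 357 CPM in T14-RA. With RA it fell behind, with 28.5, 21.5 and 18.9 CPM in T7+RA and 132, 207 and 169 CPM in T14+RA, and no RA group overlapped with its control. Its summed counts were 22.2 times those of T0 at day 7 without RA (exact 95% interval 9.28 to 69.3) and 8.03 times with it (3.21 to 25.9), and at day 14 they were 126 times (53.9 to 390.4) and 56.5 times (24.0 to 175). These intervals cover counting error only. RA lowered Tnni2 by 2.75-fold at day 7 (log2 change −1.46, SE 0.245, adjusted p = 7.03e-06) and by 2.21-fold at day 14 (−1.14, SE 0.132, adjusted p = 2.41e-10).

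Troponin C differed from the other subunits in its start. Tnnc1 (ENSRNOG00000018943, 16p16), the slow and cardiac troponin C, took 9783 counts, the most of the 7 genes, and was abundant at T0, with 475, 735 and 440.2 CPM. Levels of 657, 609 and 517 CPM in T7-RA overlapped with T0, and 1071, 1141 and 964 CPM were reached in T14-RA. With RA it was already at 1222, 1112 and 1215 CPM in T7+RA and at 1359, 1471 and 1148 CPM in T14+RA, and these groups overlapped. All T7+RA cultures lay above all T0 cultures, which is given without a test. The first-week change without RA was 0.12 (95% interval −0.18 to 0.41, adjusted p = 0.613) and the second-week change 0.83 (SE 0.135, adjusted p = 0.000123), against 0.17 for the second week with RA (−0.10 to 0.44, adjusted p = 0.511). Over the whole 14 days without RA the rise was 0.95 (SE 0.139, adjusted p = 5.8e-06), while the T14 term of the additive model, 0.79, was not called (SE 0.197, adjusted p = 0.0059) and was called without T0 replicate 2 (1.06, adjusted p = 5.14e-05), T7-RA replicate 3 (0.83, adjusted p = 0.000645) or T14+RA replicate 3 (0.83, adjusted p = 0.00059). It was also called with DESeq2 (0.79, adjusted p = 2.18e-05), limma-voom (0.81, adjusted p = 3.54e-05) and limma-trend (0.81, adjusted p = 4.67e-05). The second-week call was lost without T7-RA replicate 2 (0.85, adjusted p = 0.00133).

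RA raised Tnnc1 by 1.99-fold at day 7 (log2 change 0.99, SE 0.135, adjusted p = 7.62e-06), and it was the only member that RA raised on either day. At day 14 the change was 0.33 (SE 0.131, adjusted p = 0.125). Day 14 minus day 7 gave −0.66, which was not called at 0.05 (SE 0.187, adjusted p = 0.134), against 0.743% of all genes that did, and 0 of the 7 members passed. It was called without T0 replicate 2 (adjusted p = 0.000624), without T0 replicate 3 (adjusted p = 0.0283), with DESeq2 (adjusted p = 0.0454) and with limma-voom (adjusted p = 0.0210). In the additive model the RA change of Tnnc1 was 0.65 (SE 0.143, adjusted p = 0.00564) and was not called, while it was called without T0 replicate 2 (adjusted p = 0.000104), without T14+RA replicate 3 (adjusted p = 0.000292) and with 3 other tools.

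Tnnc2 (ENSRNOG00000015155, 3q42), the fast skeletal troponin C, had 5978 counts. It was measured at 37.2, 54.4 and 33.5 CPM at T0, at 335, 344 and 322 CPM in T7-RA and at 1049.8, 1050.3 and 969 CPM in T14-RA. With RA it stood at 359, 375 and 375 CPM in T7+RA and at 968, 1235 and 1032 CPM in T14+RA. The day 14 groups overlapped, and the T7+RA cultures lay slightly above all T7-RA cultures, a gap that was not called. It rose by 3.00 over the first week (SE 0.159, adjusted p = 1.26e-24), by 1.61 over the second without RA (SE 0.104, adjusted p = 3.69e-20) and by 1.54 over the second with RA (SE 0.103, adjusted p = 3.14e-19). The RA change was 0.15 at day 7 (95% interval −0.07 to 0.37) and 0.07 at day 14 (−0.12 to 0.26), which leaves room for a rise of up to 0.37 and a fall of up to 0.12 on the log2 scale.

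Counted by interval, 5 of 7 members rose between T0 and T7-RA (4.23% of all genes did), 6 between T7-RA and T14-RA (1.87%) and 5 between T7+RA and T14+RA (2.40%), and 0 fell in any of them. Over the whole 14 days without RA 6 rose (7.83% of all genes), all except Tnnt1. In the second week without RA the groups of all 7 members stood apart with T14-RA higher, as in 13.2% of all genes. RA raised 1 member and lowered 2 at day 7, against 1.87% and 1.30% of all genes, and lowered Tnnt3, Tnni2 and Tnni1 at day 14, against 2.35%. These comparisons share control groups, so their values for a gene are not independent of each other.

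**Figure D2:**
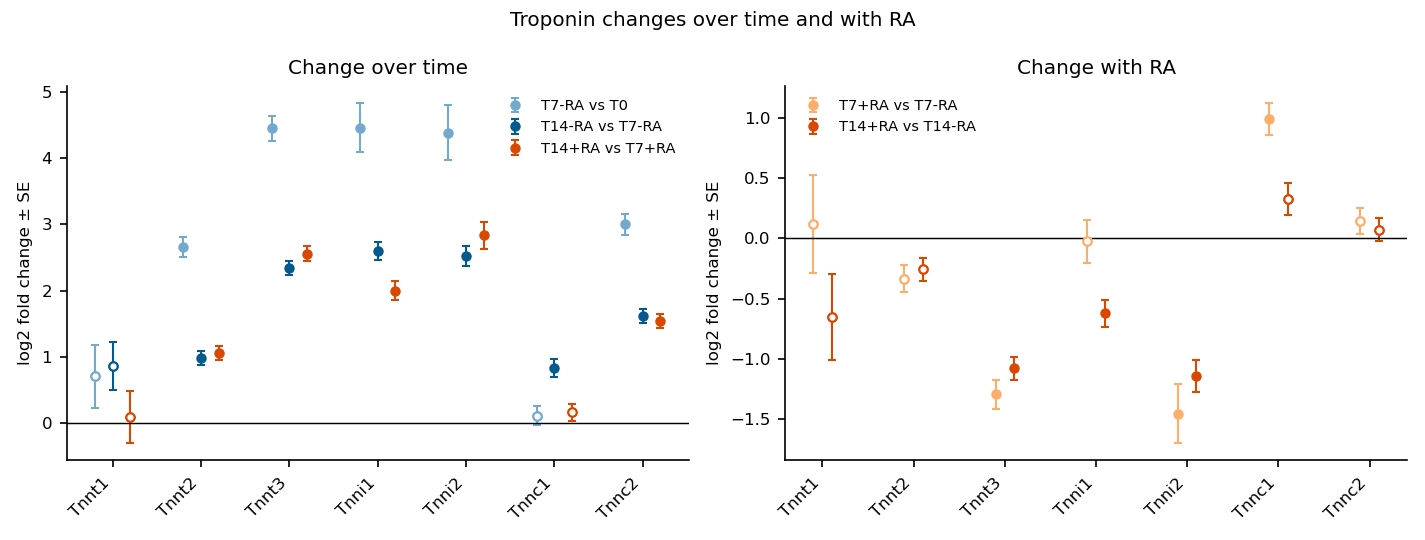
Log2 fold change of each troponin gene from the edgeR model with 5 group means, with bars of 1 SE. The left panel gives changes over time and the right panel changes with RA, and filled points passed the adjusted p of 0.001. In the right panel Tnnt3 and Tnni2 lie between −1.46 and −1.08 on both days, while Tnnc1 lies at 0.99 on day 7 and 0.33 on day 14.

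Levels of different genes were compared per length, as TPM, which divide each count by gene length before scaling, using a column of the deposited annotation that was read, from its name and values, as the length of the longest transcript. If that reading is wrong, the levels, orders and shares that follow would shift, while the changes of a single gene would keep their counts-based values. At T0 Tnnc1 led with 1341 ± 322 TPM (SD, n = 3), followed by Tnnc2 with 112 ± 23.9 and Tnnt2 with 102 ± 12.4, whose library ranges overlapped. Below them came Tnnt3, Tnnt1, Tnni2 and Tnni1, each overlapping with the next. In T14-RA the order had changed to Tnnt3 with 3622 ± 341 TPM, Tnnc2 with 2753 ± 98.2, Tnnc1 with 2599 ± 177, Tnnt2 with 1279 ± 119, Tnni2 with 959.8 ± 76.2, Tnni1 with 773 ± 29.0 and Tnnt1 with 55.0 ± 12.5, and only Tnnc2 and Tnnc1 overlapped. In T14+RA Tnnc1 led again with 3184 ± 261 TPM, overlapping with Tnnc2 (2838 ± 266), and Tnnt3 followed with 1683 ± 119. Tnni1 and Tnni2 overlapped there, at 492 ± 18.9 and 432 ± 83.8 TPM.

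Within troponin T and troponin C the fast paralog took a larger share with time. Tnnt3 made up 21.7 ± 3.13% of troponin T TPM at T0, then 51.4 ± 4.46% and 73.1 ± 0.921% at days 7 and 14 without RA, against 35.0 ± 3.18% and 60.9 ± 2.21% with RA. Tnnt2 gave way from 68.3 ± 7.29% at T0 to 25.8 ± 0.725% in T14-RA, and held 61.1 ± 3.91% and 37.9 ± 1.78% in the groups with RA. Tnnt1 went from 10.0 ± 7.68% at T0 to between 1.11 and 3.89% as the group means of the later days. Its T0 mean was pulled up by T0 replicate 1 (18.4%), and T0 replicate 2 (3.25%) lay within the T7+RA range (2.77 to 4.66%). The share of Tnnc2 in troponin C went from 7.71 ± 0.210% at T0 to 38.2 ± 2.37% and then 51.5 ± 1.13% without RA, and to 25.5 ± 1.32% and then 47.1 ± 2.98% with RA. Troponin I behaved otherwise between days 7 and 14 without RA, where Tnni2 held 56.8 ± 3.59% and then 55.3 ± 1.19%. Its T0 share, 55.4 ± 13.5%, ranged from 40.8 to 67.4% and rested on 5 summed counts of each paralog. These are too few to say whether the share moved in the first week. With RA the share of Tnni2 was 32.2 ± 3.34% at day 7 and 46.4 ± 4.29% at day 14. All 6 cultures with RA lay below all 6 cultures without RA of days 7 and 14.

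**Figure D3:**
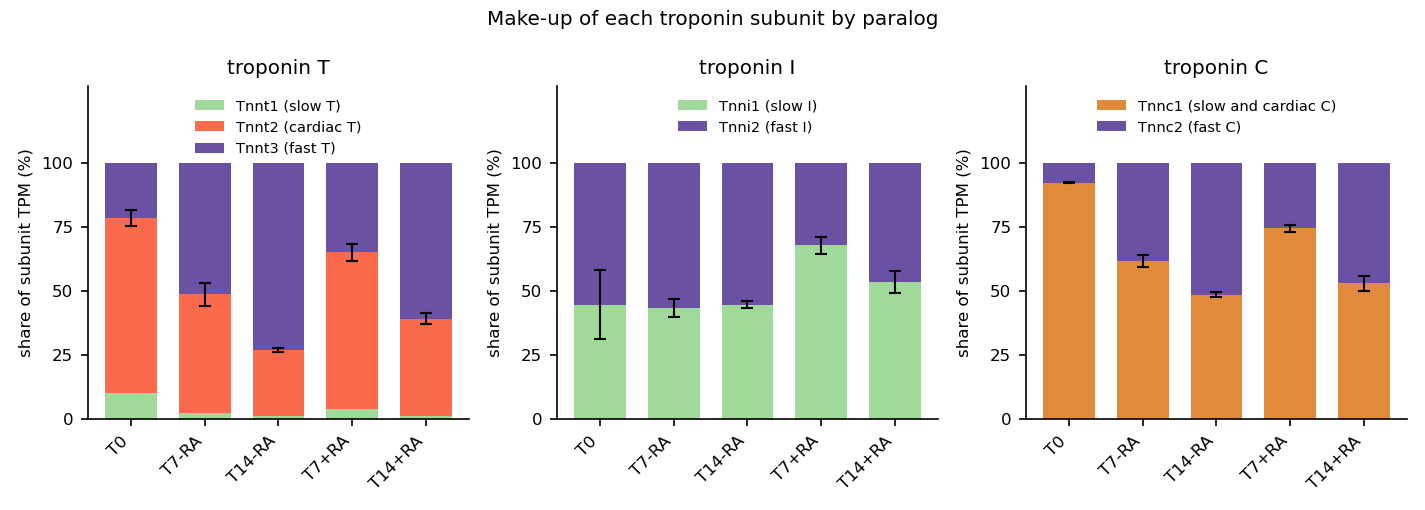
Mean share of each paralog in the summed TPM of its subunit, in percent, for the 5 groups, with SD bars (n = 3) at the boundary below the fast paralog. The fast share of troponin T grows from 21.7% at T0 to 73.1% in T14-RA and that of troponin C from 7.71 to 51.5%, while that of troponin I stays between 55.3 and 56.8% without RA.

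The balance was tested on the log2 ratio of the counts of 2 paralogs in the same library, with 0.5 added to each count, so that library size and gene length cancel in a change of the ratio. Labels were permuted within each day or RA state, a two-sided exact permutation test with 400 arrangements whose smallest p is 0.005, and p-values were adjusted over the 10 tests. In the sentences that follow, RA effects are means over days 7 and 14, and second-week effects are means over both arms.

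RA lowered the fast form against its paralog in each subunit. Tnnt3/Tnnt2 changed by −0.88 on the log2 scale (exact permutation adjusted p = 0.00833), with values of −0.95 at day 7 and −0.81 at day 14. Tnni2/Tnni1 changed by −0.98 (exact permutation adjusted p = 0.00833), from −1.44 at day 7 to −0.52 at day 14. Tnnc2/Tnnc1 changed by −0.55 (exact permutation adjusted p = 0.00833), with −0.85 at day 7 and −0.25 at day 14. In these 3 ratios all 6 cultures with RA lay below all cultures without RA of the same day. The member that moved was not the same in each subunit, since RA lowered Tnnt3 and Tnni2 on both days, whereas in troponin C Tnnc1 rose at day 7 and its change at day 14 and its mean change over both days were not called. Whether the effects differ between the days was not tested on these ratios, and 3 cultures against 3 cannot give an exact p below 0.1 within 1 day.

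Ratios to the scarce Tnnt1 were less certain. Tnnt3/Tnnt1 changed by −0.90 with RA (exact permutation p = 0.02, adjusted p = 0.0286), with 4 of 6 cultures below all controls of their day. Its adjusted p was 0.0571 without T14-RA replicate 3 and also without T14+RA replicate 2. Tnnt2/Tnnt1 changed by −0.02 (exact permutation adjusted p = 0.935), with opposite signs on the 2 days.

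The second week raised Tnnt3/Tnnt2 by 1.42, Tnnt3/Tnnt1 by 1.98 and Tnnc2/Tnnc1 by 1.08, each with an exact permutation adjusted p of 0.00833 and with all 6 day 14 cultures above all day 7 cultures of the same arm. Tnni2/Tnni1 changed by 0.38 (exact permutation adjusted p = 0.0889), made up of −0.09 without RA and 0.84 with RA. Tnnt2/Tnnt1 changed by 0.56 (exact permutation adjusted p = 0.0889).

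**Figure D4:**
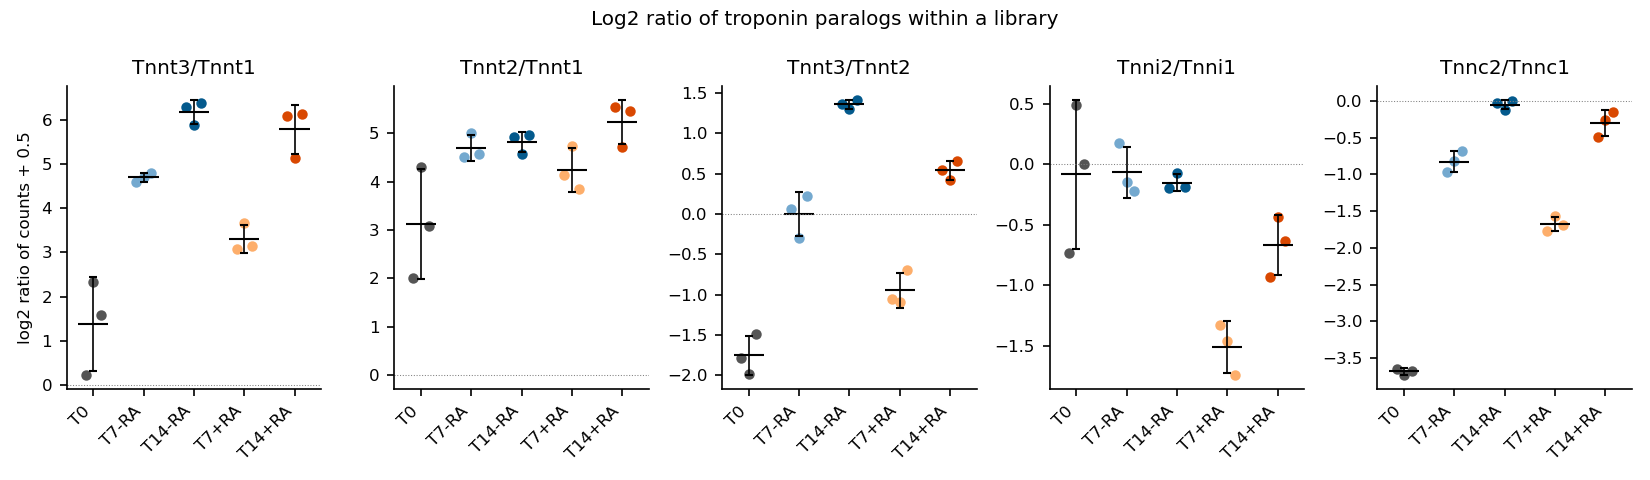
Log2 ratio of the counts of 2 troponin paralogs within each library, by group, with the mean and SD of 3 cultures. Each panel has its own axis. In the Tnni2/Tnni1 panel the T7+RA cultures lie between −1.74 and −1.33 and the T14+RA cultures between −0.93 and −0.44, below the T7-RA and T14-RA cultures (−0.22 to 0.17).

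The subunits also differed in their summed TPM, a description chosen after the values were seen and given without a test. Troponin C stood at 1453 ± 346 TPM (SD, n = 3) at T0, troponin T at 151 ± 32.8 and troponin I at 13.1 ± 6.49. By T14-RA the sums were 5352 ± 262, 4956 ± 458 and 1733 ± 103 TPM. Troponin C per troponin T thus went from 10.3 ± 5.04 at T0 to 1.70 ± 0.185 and then 1.09 ± 0.142 without RA. With RA the same ratio was 4.67 ± 0.0560 at day 7 and 2.18 ± 0.196 at day 14, above all control cultures of the same day. Troponin I per troponin T was nearly the same with and without RA, at 0.212 ± 0.0168 in T7-RA and 0.221 ± 0.0254 in T7+RA, and at 0.351 ± 0.0208 in T14-RA and 0.334 ± 0.0322 in T14+RA.

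**Figure D5:**
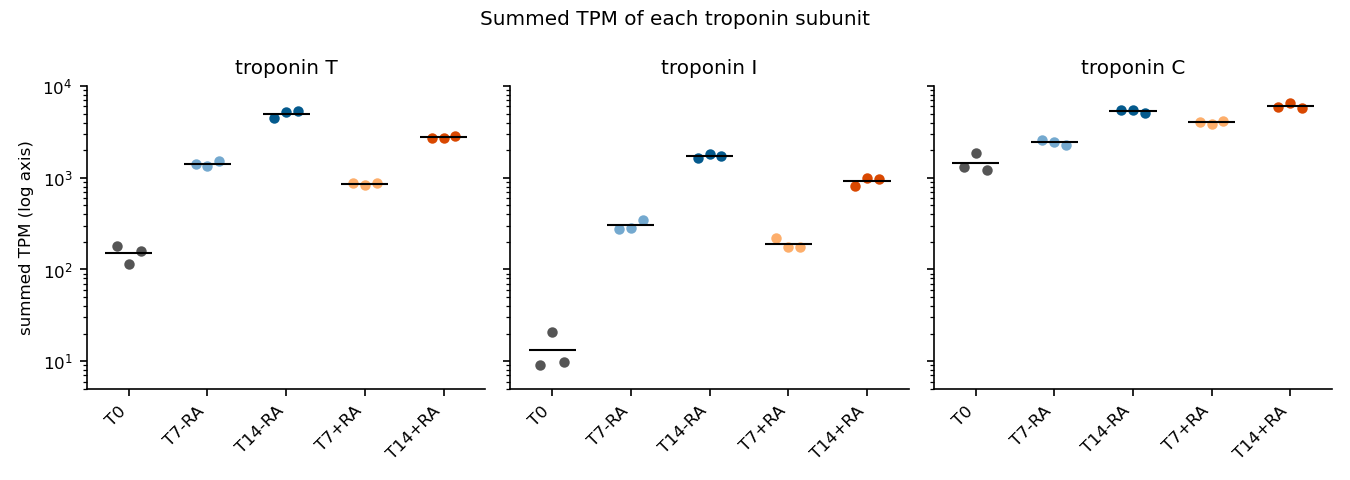
Summed TPM of the troponin T, I and C genes in each library on a log axis, with the mean of 3 cultures. Troponin C starts at 1208 to 1849 TPM at T0, where troponin I lies between 9.07 and 20.6 TPM, and the sums of T and I are lower with RA on both days while that of C is higher with RA on both days.

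The troponins were set beside other muscle genes in lists fixed by function, on the same additive model. The thin filament list holds actins, tropomyosins and the proteins that cap or measure the filament, and 11 of its 15 genes were measured. At T14, 6 rose and 3 fell, against 8.47% and 8.85% of all genes, with a median log2 change of 1.19 beside 0.05 over all genes. Acta1, the skeletal alpha-actin, rose by 6.18 (SE 0.159), Neb (nebulin) by 5.26 (SE 0.442) and Tmod1, a cap of the pointed filament end, by 2.21 (SE 0.346). Actc1, the cardiac alpha-actin, went from 6 summed counts at T0 to 494 in T14-RA. RA lowered 4 and raised 1, against 3.07% and 3.33% of all genes, with changes of −2.73 for Actc1 (SE 0.184) and −1.03 for Lmod3, which nucleates thin filaments (SE 0.128). The genes that fell at T14 were Tpm3, Tpm4 and Lmod1, which are also used outside striated muscle.

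Of the 19 genes that store, release or pump calcium, 14 were measured, and 10 rose and 1 fell at T14 (median 3.35), while RA lowered 4 and raised 1. The shares of all genes are those given for the thin filament, 8.47% and 8.85% at T14 and 3.07% and 3.33% with RA. Sln (sarcolipin, a regulator of the calcium pump) and Trdn (triadin, a partner of the release channel) had 0 counts at T0 and 106 and 60 summed counts in T14-RA. Ryr1, the skeletal calcium release channel, went from 7 to 662 summed counts and Hrc, a calcium-binding store protein, from 7 to 337. Sln changed by −2.05 with RA (SE 0.320) and Stac3, an adaptor of the skeletal calcium channel, by −1.91 (SE 0.274), whereas Trdn, with 144 summed counts in T14+RA, was the gene that RA raised.

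Of the fast fibre genes 5 of 9 were measured, and 4 rose at T14 (median 6.61), against 8.47% of all genes, and 3 fell with RA (median −1.45), against 3.07%. Mylpf, the fast regulatory myosin light chain, rose by 6.61 (SE 0.157) and fell by 1.57 with RA (SE 0.0803). Myl1, the fast essential light chain, and Actn3, a Z-disc crosslinker, had 0 counts at T0 and 343 and 89 summed counts in T14-RA, and Myl1 fell by 1.45 with RA (SE 0.178). Eno3, the muscle enolase, rose by 2.01 (SE 0.154). Only 3 of the 7 slow fibre genes were measured, of which 2 rose at T14 and 1 fell with RA. Mybpc1, the slow myosin-binding protein C, had 1 count at T0, 103 in T14-RA and 6 in T14+RA, and Csrp3, a Z-disc LIM protein, rose by 3.21 (SE 0.466). With 3 genes the slow list is too short to set beside the fast one.

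Other genes were ranked by how closely their profile over the 15 libraries matched each member, as the root mean square difference of centred log2 CPM among 8372 genes with at least 150 counts. Tnnt3 was closest to Mylpf (0.324), Acta1 (0.335) and Myh3, the embryonic myosin heavy chain (0.368). Tnni2 was closest to Mylpf (0.481), Acta1 (0.507) and Myl4, an embryonic and atrial light chain (0.531). Near neighbours of Tnni1 were Acta1 (0.330) and Mybph (0.478). The profile of Tnnt2 was nearest to that of Myog (0.258), the myogenic transcription factor myogenin, then Ephx1 (0.283) and RGD1304884 (0.305). Tnnc2 was nearest to Unc45b, a myosin chaperone (0.226), Trim72 (0.420) and Mybph (0.435). Tnnc1 had the neighbours Akip1 (0.220), Ankrd1 (0.251) and Cd63 (0.254), and Tnnt1 had Sik1 (0.331), Psenen (0.353) and Jsrp1 (0.362). Among the members themselves Tnnt3 and Tnni2 were the closest pair (0.443) and Tnnt3 and Tnnc1 the most distant (2.01).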

How the data were processed

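RNA-seq was measured in 15 cultures, with TruSeq Stranded mRNA libraries read on a MiSeq. The authors trimmed the reads on Galaxy, aligned them with HISAT2 and assigned them to genes with featureCounts. The submitters' processing notes name the build Rnor_6.0. The authors deposited unnormalized counts of every gene whose total over the libraries exceeded 20 (smallest total 21). Tool versions, annotation release, strand setting and treatment of reads shared by paralogs are not given in the sources used here. Groups and replicate numbers came from the sample labels, and 0 columns were left unmapped.

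CPM used TMM-scaled library sizes, and TPM used a deposited column, read as the length of the longest transcript, in units of 1000 bases. Counts were tested on all 11574 genes in edgeR 4.0.16 (R 4.3.3) with TMM, robust dispersions and the quasi-likelihood test, in an additive model (T7, T14, RA, as in the study) and a model with 5 group means. Each term was adjusted over all genes (Benjamini-Hochberg) and called at 0.001, or at 0.05 for the difference between days. The standard error is the absolute log2 change divided by the root of F, and 95% intervals of log2 changes use it with the degrees of freedom of the fit. Ratios of T0 counts of at most 3 per library were given with exact intervals, which cover counting error only. Paralog ratios were tested by exact permutation. The scripts were tested on simulated counts. No pair of replicate libraries agreed within sampling noise (smallest chi-square per gene 1.07), and all were kept.

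Alternatives were RLE scaling, no scaling factors, filterByExpr, DESeq2 1.42.0, and limma 3.58.1 in its voom and trend forms and on quantile-normalized counts, an adjusted p of 0.05, a replicate block, each library left out, another pseudocount (2) or CPM scale for the ratios, and each day or arm alone. All 7 members were named. In each companion list the 4 called genes with the largest T14 change and the 2 with the largest RA change were named, and 3 similar genes for each member. Tpm3, Tpm4, Lmod1 and the RA change of Trdn were added after their values were seen. Some results under these rules are not reported here. The members and lists were chosen with earlier results of these data known. Promoters and gene order came from RefSeq tables on build GRCr8, whose coordinates are not those of the counting.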

Additional observations from a re-analysis of the deposited data

How the results depend on the processing

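The counts of called members changed in few settings. RA raised 1 member (Tnnc1) with DESeq2, limma-voom and limma-trend, and at an adjusted p of 0.05 RA raised 1 and lowered 4. At T14 the members that rose numbered 6 in place of 5 with these 3 tools, Tnnc1 being added, and 7 at an adjusted p of 0.05, where 4102 of the 11574 genes were called for T14 in either direction, against 2004 at 0.001. With 1 library left out the number raised by RA ranged from 0 to 1, with 1 without T0 replicate 2 and without T14+RA replicate 3. The RA change differed between days in 1 member (Tnnc1, lower at day 14) with DESeq2, limma-voom and the replicate block (adjusted p = 0.00248 under the block), and in 0 to 1 with 1 library left out, 1 without T0 replicate 2 or 3. The RA fall of Tnni1 was called under the block (-0.45, adjusted p = 0.000675) and with scaling by library size only (-0.47, adjusted p = 0.000649). Same-numbered libraries did not deviate together (mean r = 0.0321, range -0.0394 to 0.186 over 30 pairs), so the number is not a pairing. Of the other counts of called members, 156 values under other settings and 296 with 1 library left out stayed within 1.5 times the main count.

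The paralog ratios moved when each day or arm stood alone, where 3 against 3 cannot give an exact p below 0.1. The RA effect at day 7 alone was -1.40 for Tnnt3/Tnnt1, -0.45 for Tnnt2/Tnnt1, -1.44 for Tnni2/Tnni1 and -0.85 for Tnnc2/Tnnc1, and at day 14 alone it was -0.39, 0.42 (the sign turned), -0.52 and -0.25. The second-week effect of the same ratios without RA was 1.48, 0.12, -0.085 (the sign turned) and 0.78, and with RA 2.49, 1.00, 0.84 and 1.38. A pseudocount of 2 counts called the second-week change of Tnnt2/Tnnt1 (0.59, adjusted p = 0.0187). With 1 library left out the RA effect ranged from -0.59 to -0.50 for Tnnc2/Tnnc1, -1.04 to -0.91 for Tnni2/Tnni1, -0.14 to 0.12 for Tnnt2/Tnnt1, -0.99 to -0.74 for Tnnt3/Tnnt1 and -0.95 to -0.82 for Tnnt3/Tnnt2. The second-week effect ranged from 1.04 to 1.12, 0.32 to 0.44, 0.46 to 0.69, 1.90 to 2.14 and 1.35 to 1.49 in the same order, and passed 0.05 for Tnni2/Tnni1 without T7-RA replicate 1 and for Tnnt2/Tnnt1 without T7-RA replicate 2.

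Among single genes, signs turned only in changes that were not called. These were the RA change of Tnnc2 with limma on quantile-normalized counts (-0.020) and changes that spanned 0 with 1 library left out. They ranged from -0.0042 to 0.38 for Tnnc1 in the first week without RA, -0.15 to 0.12 for Tnni1 and -0.025 to 0.34 for Tnnt1 with RA at day 7, -0.031 to 0.15 for Tnnc2 with RA at day 14, -0.28 to 0.33 for Tnnt1 in the second week with RA, and for the difference between days from -0.024 to 0.13 for Tnnt2 and from -0.19 to 0.0029 for Tnnc2. Scaling by library size only moved the median of all genes to 0.13 at T7 and 0.15 at T14 and turned no sign of a member. The causes were not tested. Counts were lowest for Tnnt1, with 165 in all, and for Tnni1 and Tnni2 at T0, with 5 summed counts each.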

Other observations

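On the log2 scale from T0 (0) to T14-RA (1), the T14+RA cultures stood at 1.02 for Tnnc2, 0.928 for Tnnt2, 0.90 for Tnni1, 0.837 for Tnnt3, 0.813 for Tnni2 and 1.33 for Tnnc1. On the same scale T7-RA and T7+RA stood at 0.647 and 0.679 for Tnnc2, 0.727 and 0.634 for Tnnt2, 0.585 and 0.581 for Tnni1, 0.646 and 0.453 for Tnnt3, 0.59 and 0.36 for Tnni2 and 0.146 and 1.17 for Tnnc1. In all 6 of these genes the T14+RA position lay above the T7-RA position. Tnnt1, with 165 counts in all, was left out of this description.

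Of the 5 measured fibroblast markers RA lowered 3 and raised 1 in the additive model, against 3.07% and 3.33% of all genes. Postn (periostin, a matrix protein) changed by -5.46, Lum (lumican) by -1.88 and Thy1, a surface glycoprotein, by -0.49 on the log2 scale, Dcn (decorin, a collagen-binding proteoglycan) by 1.08, and Col1a1, a collagen chain, by 0.06, which was not called. Postn lay at 1201 to 1629 CPM at T0, 496 to 685 CPM in T14-RA and 7.72 to 14.5 CPM in T14+RA. Dcn had 0 counts at T0 and lay at 42.5 to 56.5 CPM in T14-RA and 96.5 to 154 CPM in T14+RA. The part of these shifts in the troponin levels was not tested.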
